A study of Mus musculus with 44 samples.

Results

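The comparison described here set mouse embryonic stem (ES) cells with recombined HexERTVP2 against cells with unrecombined HexERTVP2, both given the ligand 4-hydroxytamoxifen (4-OHT). It held 13 of the 44 arrays of the series, chosen by their labels alone: 7 arrays of recombined cells (4 of clone 1 and 3 of clone 2) and 6 of unrecombined cells (3 of each clone). The study searched for genes that the homeodomain protein Hex controls. All groups were CGR8 ES cells (the cgr8.8 clone) in which HexERTVP2 had been targeted to Rosa26, which most mouse cell types transcribe, and total RNA was measured on single-channel Affymetrix MG-U74Av2 arrays. A further set of HexERTVP2 arrays without 4-OHT, 7 of recombined cells (4 of clone 1 and 3 of clone 2) and 8 of unrecombined cells (5 of clone 1 and 3 of clone 2), shares clones but no array with the comparison. The labels give no dose or duration of 4-OHT, no method of recombination and no statement on whether each recombined line was 1 clone. Nor do they state if replicate arrays were grown as separate cultures, so p-values measure the spread between these samples, which may be technical.

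Hex (gene symbol Hhex) marks the anterior endoderm of the early embryo, acts mostly as a transcriptional repressor and recruits Groucho/TLE co-repressors. By its name, HexERTVP2 is Hex fused to a 4-OHT-responsive domain of the oestrogen receptor and to a VP activation domain. Receptor fusions of this type are kept inactive by chaperones until the ligand binds, and a VP domain activates the genes to which it is brought. Recombination commonly switches such an insert on, although the labels are silent on this point.

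Values are log2 of the deposited intensity, and a change is the log2 value in recombined cells minus that in unrecombined cells, averaged over the 2 clones with equal weight unless a clone is named. Of 14 ES cell identity markers, 13 lay above the median level of all probe sets (6.77), led by Pou5f1 at a mean of 11.36 and Sox2 at 11.19, so the arrays carried the markers of the labelled cell type. The endoderm regulators Gata6 (mean 5.99) and Foxa2 (6.68) lay below that median, and Sox17 (7.11) lay just above it; the files give no detection calls. The 3′/5′ log2 ratio of the β-actin control probes, which falls or rises with how intact the RNA was and how it was labelled, was 0.57 to 2.24 in recombined cells with 4-OHT and 0.78 to 1.58 in unrecombined cells with 4-OHT. It differed by 0.078 between them (exact permutation test within clones, two-sided, 700 permutations, p = 0.789), by −0.191 in clone 1 and by 0.347 in clone 2. In bulk RNA, fewer cells of a type and less RNA per cell cannot be told apart.

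Hhex itself gave 6.14, 6.31, 6.16 and 6.14 in recombined clone 1 cells, against 6.12, 6.15 and 6.10 in unrecombined clone 1 cells. In clone 2 its values were 6.11, 6.15 and 6.28 in recombined cells, against 6.08, 6.36 and 6.26 in unrecombined cells. The groups overlapped, and the change was 0.01 ± 0.06 (SE, adjusted p = 1). The labels do not say whether the inserted gene carries the region that this probe set detects, so Hhex is no check of the labels. At the targeted locus, Gt(ROSA)26Sor lay between 4.11 and 4.81 in all 28 HexERTVP2 arrays, against 5.14 to 5.54 in the 4 wild-type arrays. Its neighbour Thumpd3 lay between 9.0 and 9.73 in the HexERTVP2 arrays and between 10.28 and 10.46 in wild type. Neither locus gene passed the test between recombined and unrecombined cells with 4-OHT, where Gt(ROSA)26Sor changed by 0.05 ± 0.10 (SE).

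With 4-OHT on both sides, recombined cells had more RNA for the nuclear receptor Nr0b1, the co-repressor Tle3, the zinc finger factor Zic2 and the adenylate kinase Ak4, and less for the transcription factors Egr1, Tfap2c and Klf2 and the co-activator Cited2. For Zic2 this held only on the dimmer of its probe sets. In all, 37 of 12422 probe sets passed an adjusted p of 0.05 (0.298% of those tested): 14 were higher (0.113%) and 23 were lower (0.185%). An unadjusted p under 0.05 was reached by 527 probe sets (4.24%). Of the 37, 31 map to 1 gene symbol and 6 to none or several, and 8 lay below the median level. Both clones changed in the same direction in 34 of the 37, against 43.4% of all probe sets. In 19 of the 37 (10 higher, 9 lower) no array of recombined cells overlapped with the unrecombined arrays of its clone, which held for 0.475% of all probe sets (27 higher, 0.217%, and 32 lower, 0.258%). Both shares come from the arrays of the test and describe the calls. The count of 37 was 27 to 39 when single arrays were left out, but it was 3 with clone and replicate number as a block in the 13 arrays alone, 143 with a β-actin covariate and 235 with array weights.

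The largest rise was that of Nr0b1 (also Dax1), an orphan nuclear receptor of the pluripotency network on the X chromosome. Its log2 values were 10.22, 10.71, 10.66 and 10.38 in recombined clone 1 cells, against 9.41, 9.02 and 9.19 in unrecombined clone 1 cells. Clone 2 gave 10.15, 10.15 and 10.25 in recombined cells, against 9.15, 9.29 and 9.48 in unrecombined cells. Recombined arrays all lay above all unrecombined arrays of both clones, and the change was 1.08 ± 0.11 (SE, adjusted p = 2.77e-06), or 2.12-fold. Another Nr0b1 probe set, at a mean level of only 4.20, changed by 0.043 ± 0.143 (SE) and did not pass.

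Tle3 belongs to the Groucho/TLE family, whose members bind Hex and other repressors and silence their targets. Its values were 9.34, 9.53, 9.41 and 9.37 in recombined clone 1 cells, against 9.0, 8.98 and 8.93 in unrecombined clone 1 cells. In clone 2 they were 9.25, 9.18 and 9.40 in recombined cells, against 8.68, 8.77 and 8.67 in unrecombined cells. Recombined and unrecombined arrays were separate in both clones, with a change of 0.51 ± 0.06 (SE, adjusted p = 2.51e-05), or 1.42-fold.

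The promoter windows of Nr0b1 and Tle3, the largest named rises with a single window in the RefSeq promoter table (GRCm38.p6, 250 bases before to 50 after the gene start), are shown as the sequence next to the start of the leading rises. Both run 5′ to 3′ on the plus strand, Nr0b1 at chrX:86191525-86191824 and Tle3 at chr9:61372116-61372415. Capitals mark a match to the homeodomain core ATTAA on either strand.
Nr0b1: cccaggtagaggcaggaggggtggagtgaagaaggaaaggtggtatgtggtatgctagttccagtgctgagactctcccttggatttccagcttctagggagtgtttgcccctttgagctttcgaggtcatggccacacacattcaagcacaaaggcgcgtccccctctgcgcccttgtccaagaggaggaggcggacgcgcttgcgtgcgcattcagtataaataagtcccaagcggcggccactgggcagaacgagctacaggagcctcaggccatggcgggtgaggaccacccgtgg
Tle3: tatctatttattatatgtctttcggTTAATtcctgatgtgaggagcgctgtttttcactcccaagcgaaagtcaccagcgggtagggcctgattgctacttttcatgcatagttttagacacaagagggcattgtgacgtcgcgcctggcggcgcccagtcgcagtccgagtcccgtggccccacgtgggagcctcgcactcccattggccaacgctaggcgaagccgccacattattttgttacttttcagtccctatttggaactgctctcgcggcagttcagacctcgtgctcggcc
The Tle3 window holds 1 such match and the Nr0b1 window none. ATTAA occurs in 27.1% of the 32851 counted windows of this length, which do not cover every chromosome. It occurred in 2 of the 12 counted windows of the 9 called rises that have one (16.7%). Among the called falls, 14 have a counted window, Egr1 not among them, and 5 of their 19 windows held ATTAA (26.3%). The longer core TAATTA, whose letters overlap an ATTAA match where an A follows, is in 5.29% of the counted windows. The oestrogen response element (GGTCA, 3 bases of any kind, then TGACC) is in 0.07%, and neither occurred in the counted windows of called genes. A match is not a site, and a missing match says only that these letters are not in the window.

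Zic2, a zinc finger transcription factor needed for forebrain development, gave 6.62, 6.64, 6.6 and 6.34 in recombined clone 1 cells, against 6.17, 6.02 and 6.31 in unrecombined clone 1 cells. The clone 2 values were 7.39, 6.90 and 6.67 in recombined cells, against 6.27, 5.99 and 6.13 in unrecombined cells. The arrays were separate in each clone, narrowly so in clone 1, where recombined replicate 4 at 6.34 lay close to the highest unrecombined array at 6.31. The change was 0.62 ± 0.09 (SE, adjusted p = 0.000526), but another Zic2 probe set with a higher mean level (7.41) changed by −0.101 ± 0.067 (SE) and did not pass, so the probe sets disagree.

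Ak4, a mitochondrial adenylate kinase, had 8.47, 8.39, 8.60 and 8.30 in recombined clone 1 cells, against 8.10, 7.93 and 7.98 in unrecombined clone 1 cells. Clone 2 arrays held 7.98, 7.92 and 8.01 in recombined cells, against 7.39, 7.29 and 7.44 in unrecombined cells. Recombined arrays were above unrecombined arrays of the same clone throughout, by 0.52 ± 0.07 (SE, adjusted p = 8.54e-05). Its other probe set moved by 0.262 ± 0.111 (SE) and did not pass. Noct, the deadenylase-like protein nocturnin, rose by 0.49 ± 0.09 (SE, adjusted p = 0.00655), while its other probe sets changed by 0.364 ± 0.125 and −0.135 ± 0.113 (SE) and did not pass. Calml4, a calmodulin-like protein, rose by 0.49 ± 0.10 (SE, adjusted p = 0.0155). Adipoq, the fat cell hormone adiponectin, rose by 0.37 ± 0.08 (SE, adjusted p = 0.0218) from a level under which 24.2% of probe sets lie. All 3 were separate between the groups in each clone.

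Among the rises without an assigned gene, probe set 97519_at changed by 0.73 ± 0.08 (SE, adjusted p = 1.32e-05). Probe set 100914_at changed by 0.71 ± 0.07 (SE, adjusted p = 1.04e-06), and its arrays were 9.15, 8.87, 8.91 and 8.94 in recombined clone 1 cells, against 8.40, 8.30 and 8.55 in unrecombined clone 1 cells. Probe set 94027_at changed by 0.48 ± 0.09 (SE, adjusted p = 0.00644). None of these 3 overlapped between groups in either clone.

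Other rises overlapped in at least 1 clone. Klf4, a naive pluripotency factor, rose by 0.51 ± 0.11 (SE, adjusted p = 0.0474), and Dppa3 (Stella), a germ cell and oocyte factor, by 0.48 ± 0.10 (SE, adjusted p = 0.0204). The Dppa3 change was 0.14 in clone 1 and 0.83 in clone 2, a difference that did not pass (adjusted p = 0.253). Ppp2r5a, a regulatory subunit of protein phosphatase 2A, rose by 0.28 ± 0.06 (SE, adjusted p = 0.0332). Leaving out 1 array at a time ended the call of Klf4 in 9 of 13 cases (changes of 0.43 to 0.57, highest adjusted p = 0.163), of Ppp2r5a in 10 of 13 cases (changes of 0.24 to 0.32, highest adjusted p = 0.145) and of Adipoq in 7 of 13 cases (changes of 0.34 to 0.40, highest adjusted p = 0.0969). It did so for Dppa3 in 6 of 13 cases (changes of 0.43 to 0.55, highest adjusted p = 0.0848) and for Calml4 in 4 of 13 cases (changes of 0.44 to 0.54, highest adjusted p = 0.0836).

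Egr1, an immediate-early zinc finger factor that growth factors induce through ERK signalling, had the largest fall among genes with a symbol and separate arrays. It had 7.57, 7.21, 7.61 and 7.48 in recombined clone 1 cells, against 8.44, 8.22 and 8.36 in unrecombined clone 1 cells. The clone 2 arrays gave 7.80, 7.91 and 7.83 in recombined cells, against 8.10, 8.26 and 8.18 in unrecombined cells. All 7 recombined arrays lay below all 6 unrecombined arrays, and the change was −0.60 ± 0.07 (SE, adjusted p = 2.24e-05), or 1.52-fold lower. Another probe set at a mean of 5.72 changed by −0.027 ± 0.125 (SE). Of 23 immediate-early genes measured, Klf4 rose, Egr1 fell and 21 did not pass; Fos changed by −0.744 ± 0.231 (SE, adjusted p = 0.342) and Dusp6, a feedback inhibitor of ERK, by −0.315 ± 0.149 (SE).

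Klf2, a Krüppel-like factor of naive pluripotent cells, had 8.15, 8.02, 7.93 and 8.04 in recombined clone 1 cells, against 8.49, 8.45 and 8.64 in unrecombined clone 1 cells. The clone 2 arrays held 8.47, 8.38 and 8.29 in recombined cells, against 8.73, 8.59 and 8.58 in unrecombined cells. Groups were separate in each clone, with a change of −0.37 ± 0.05 (SE, adjusted p = 0.000221). Klf4 had a change of the opposite sign, although its call was lost in 9 of 13 fits without 1 array. Klf5, a relative of both, changed by 0.132 ± 0.103 (SE) and did not pass.

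Tfap2c (AP-2γ), a factor of trophoblast and of germ cell precursors, gave 8.66, 8.34, 8.48 and 8.44 in recombined clone 1 cells, against 9.24, 9.13 and 9.27 in unrecombined clone 1 cells. In clone 2 its arrays were 8.56, 8.66 and 8.63 in recombined cells, against 8.75, 8.85 and 8.79 in unrecombined cells. They did not overlap in either clone, and the change was −0.46 ± 0.07 (SE, adjusted p = 0.000526). Of 20 measured trophoblast markers it alone passed.

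Cited2, a transactivator that binds CBP and p300 and is induced by several hormones and cytokines, had 8.71, 8.88, 8.98 and 8.77 in recombined clone 1 cells, against 9.34, 9.11 and 9.21 in unrecombined clone 1 cells. For clone 2 the values were 8.78, 8.98 and 9.06 in recombined cells, against 9.39, 9.28 and 9.39 in unrecombined cells. The groups were separate in both clones and differed by nearly the same amount, −0.39 in clone 1 and −0.42 in clone 2 (mean −0.40 ± 0.07 (SE, adjusted p = 0.00509)).

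The other named falls with separate arrays were Ptpn13, a non-receptor tyrosine phosphatase (−0.49 ± 0.07 (SE, adjusted p = 0.000257)), AF067061 (−0.43 ± 0.08 (SE, adjusted p = 0.00509)) and Ssbp2, a cofactor of LIM-domain protein complexes (−0.43 ± 0.09 (SE, adjusted p = 0.0409)). The unnamed probe sets 93326_at (−0.31 ± 0.06) and 95297_at (−0.64 ± 0.12) also fell. Cdkn1c, the imprinted cyclin-dependent kinase inhibitor p57, had the largest fall of all, −0.97 ± 0.18 (SE, adjusted p = 0.00686), or 1.96-fold. Its arrays were 8.67, 8.26, 8.17 and 7.70 in recombined clone 1 cells, against 9.44, 9.20 and 10 in unrecombined clone 1 cells. In clone 2 they overlapped, with 9.63, 8.79 and 8.82 in recombined cells, against 10.07, 9.52 and 9.47 in unrecombined cells. The Cdkn1c change was −1.34 in clone 1 and −0.60 in clone 2, and the average did not pass when only the 13 arrays were fitted. The imprinted Gnas locus changed by −0.33 ± 0.06 (SE, adjusted p = 0.00789) on its brightest probe set, and 2 dimmer Gnas probe sets did not pass; the other 23 of 25 imprinted genes did not pass.

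Some falls come from probe sets that may read several similar transcripts or that disagree with other probe sets of the gene. AF067061, Gm2022 (−0.62 ± 0.09), Gm20767 (−0.47 ± 0.09) and Gm9706 (−0.39 ± 0.08) are read by sets of the _f_at type, which Affymetrix marks as shared within a gene family. Dab2 (−0.57 ± 0.09) passed on 1 of 3 probe sets, Cubn (−0.51 ± 0.07) on 1 of 2 and Tapbp (−0.42 ± 0.09) on 1 of 3. Pim2, a kinase gene induced by STAT signalling, passed on 1 of 2 (−0.69 ± 0.15 (SE, adjusted p = 0.0474)). The unnamed 97317_at changed by −0.75 ± 0.14. Cubn, Ppp2r5a, Tapbp, the Gm genes and the unnamed probe sets are given after their values were seen, to complete the calls. Leaving out 1 array at a time ended the call of Ssbp2 in 11 of 13 cases (changes of −0.47 to −0.40, highest adjusted p = 0.128), of Pim2 in 9 of 13 cases (changes of −0.80 to −0.60, highest adjusted p = 0.173) and of Tapbp in 6 of 13 cases (changes of −0.47 to −0.36, highest adjusted p = 0.108). It did so for Gm9706 in 4 of 13 cases (changes of −0.43 to −0.35, highest adjusted p = 0.0997), for Gm20767 in 4 of 13 cases (changes of −0.56 to −0.41, highest adjusted p = 0.0666) and, among unnamed probe sets, for 93326_at in 2 of 13 cases (changes of −0.34 to −0.27, highest adjusted p = 0.0553) and 97317_at in 1 of 13 cases (changes of −0.83 to −0.65, highest adjusted p = 0.0522).

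**Figure D1:**
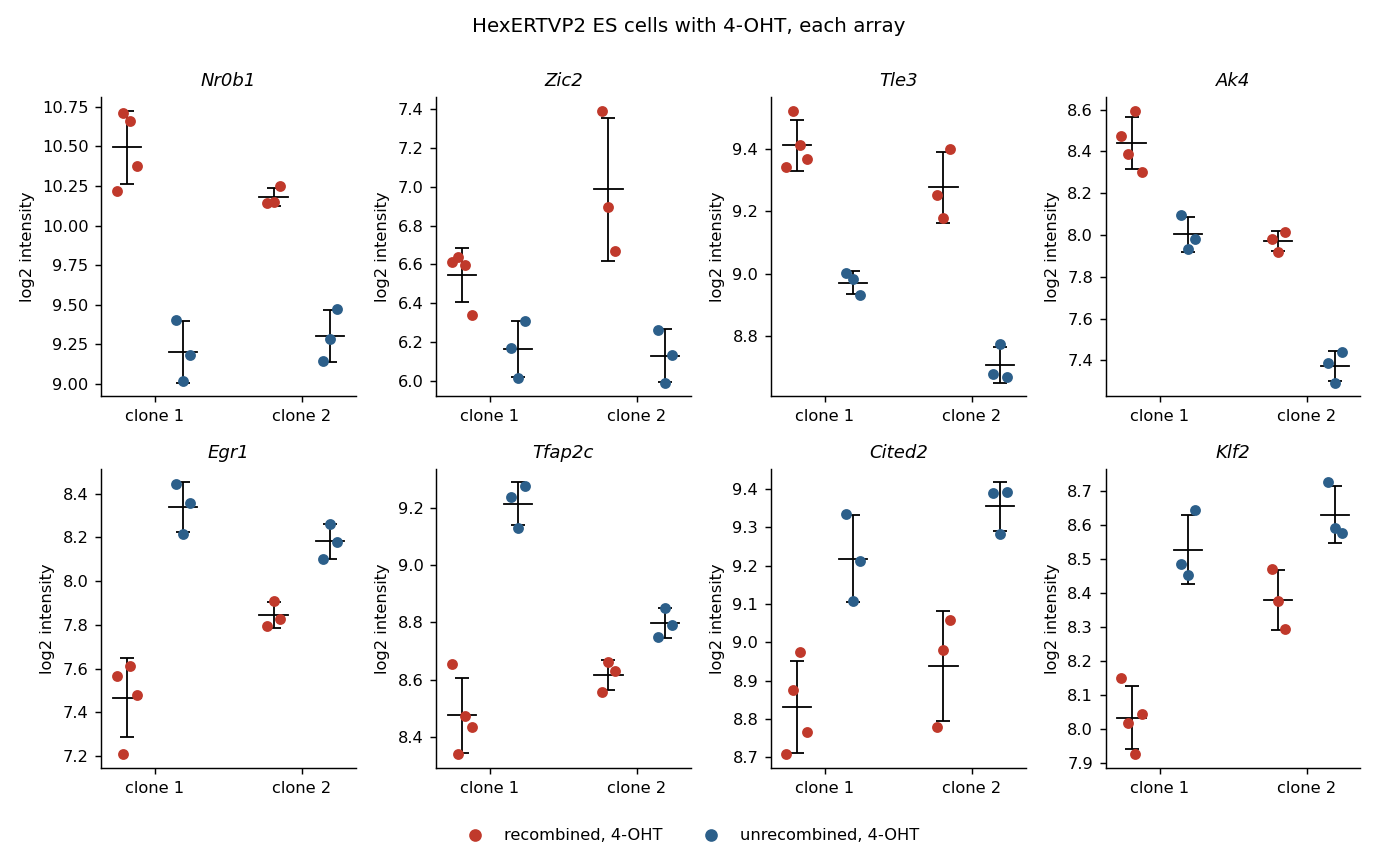
Log2 intensity of 8 genes on each of the 13 arrays with 4-OHT, by clone, with recombined cells in red and unrecombined cells in blue; horizontal lines are means and bars are SDs. Recombined and unrecombined arrays of a clone do not overlap in any panel: Nr0b1, Zic2, Tle3 and Ak4 are higher and Egr1, Tfap2c, Cited2 and Klf2 lower in recombined cells. Zic2 is shown on its dimmer probe set, and the brighter set did not pass.

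Tle4 and Nodal, which the series description names, had positive changes that did not pass. Tle4, another Groucho co-repressor, had 8.69, 9.70, 9.65 and 9.50 in recombined clone 1 cells, against 8.49, 8.68 and 8.13 in unrecombined clone 1 cells. For clone 2, Tle4 read 8.87, 8.84 and 9.57 in recombined cells, against 8.38, 8.89 and 9.22 in unrecombined cells. Clone 1 arrays were narrowly separate and clone 2 arrays overlapped, and the change was 0.61 ± 0.19 (SE, adjusted p = 0.327). Nodal, the TGF-β family ligand that patterns the early embryo, had 7.98, 8.53, 8.26 and 8.11 in recombined clone 1 cells, against 7.69, 8.03 and 7.41 in unrecombined clone 1 cells. The clone 2 values were 8.06, 8.01 and 8.47 in recombined cells, against 7.70, 8.01 and 7.94 in unrecombined cells. Clone 1 arrays overlapped, clone 2 arrays were barely separate, and the change was 0.41 ± 0.11 (SE, adjusted p = 0.165). When the fit also held the β-actin ratio, both passed, with adjusted p-values of 0.0162 and 0.00313, at changes of 0.65 and 0.43. Nodal, but not Tle4, also passed in the fit with array weights, which held no β-actin ratio. The part of RNA quality in their spread was not tested.

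All 4 measured Groucho/TLE genes had positive changes, with a median of 0.391 against −0.00438 for all probe sets, and 1 of the 4, Tle3, passed. Tle1 changed by 0.276 ± 0.0757 (SE, adjusted p = 0.174) and Tle5, a short family member, by 0.0441 ± 0.0755. In the Nodal and TGF-β list (ligands, receptors, Smads and regulators), 0 of 29 genes rose and 0 fell: the ligand Gdf3 changed by 0.095, the antagonist Lefty1 by −0.0108 and the repressor Tgif1 by −0.273 ± 0.0816 (SE, adjusted p = 0.292). None of 21 BMP and Id genes passed, the largest change being that of Id1, a BMP target, at −0.88 ± 0.21 (SE, adjusted p = 0.0739). None of 41 Wnt genes passed, where the transcription factor Lef1 had −0.19 ± 0.06 (SE, adjusted p = 0.292). None of 12 anterior endoderm genes passed, and their median change was −0.0466; the organizer factor Gsc changed by −0.07 and the antagonist Cer1 by −0.00942. These counts, and those of the other gene lists in the test of the average, stand beside the 0.298% of all probe sets that passed it.

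Of 22 pluripotency factors, Nr0b1, Klf4 and Dppa3 rose and Klf2 fell, and the median change was 0.0686. The core factors did not pass: Pou5f1 changed by −0.0974 ± 0.247 (SE), Sox2 by −0.0518 ± 0.175 and Nanog by 0.179 ± 0.0939. Tfcp2l1, a naive factor downstream of LIF, changed by 0.269 ± 0.0641 (SE, adjusted p = 0.0739). In the LIF and STAT3 list of 17 genes Klf4 rose, Pim2 fell and the median was −0.0137, with Stat3 at 0.0324 and the feedback inhibitor Socs3 at 0.168. Of 18 oestrogen-response genes Cited2 alone passed, and the progesterone receptor Pgr changed by −0.0109. Of 24 hypoxia and glycolysis genes Ak4 alone passed. No member passed among 18 cholesterol genes, 14 p53 and DNA damage genes, 20 heat shock genes, 14 FGF genes, 12 DNA methylation genes and 23 cytoskeleton genes, and Cdkn1c alone passed among 30 cell cycle genes.

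Lists of other lineages held few calls: 0 of 27 primitive streak and mesoderm genes, 0 of 22 neuroectoderm genes, 0 of 23 fibroblast and feeder genes, 0 of 25 blood and endothelium genes and 1 of 32 primitive and visceral endoderm genes (Col4a2, lower) passed. Each gene of a list is represented by its brightest probe set, which for Zic2 on the neuroectoderm list is the one that did not pass. Cubn and Dab2, endocytic proteins of visceral endoderm, likewise passed only on probe sets that are not their brightest. Their brightest sets changed by 0.026 ± 0.103 for Cubn and −0.082 ± 0.068 for Dab2 (SE) and did not pass. The summed intensity of the 23 fibroblast genes was 4540 to 4857 in recombined clone 1 cells, against 4372 to 4583 in unrecombined clone 1 cells, and 3980 to 4311 in recombined clone 2 cells, against 4165 to 4389 in unrecombined clone 2 cells.

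The 2 clones did not carry the same recombination effect at every gene. A test of the difference in change between clones, clone 1 minus clone 2, found 36 probe sets (0.29% of those tested). The change was higher in clone 1 at 22 of them (0.177%) and lower at 14 (0.113%), and 34 of the 36 map to 1 gene. At 33 of the 36 the clones had opposite signs. Across all probe sets the change in clone 1 and the change in clone 2 had a Pearson r of −0.127, given as a description across genes, which are not independent. None of the 14 rises above differed between clones by this test, while 6 of the 23 falls did: Gbp2, Gbp2b, Irf1, Cubn, Dab2 and Col4a2.

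**Figure D2:**
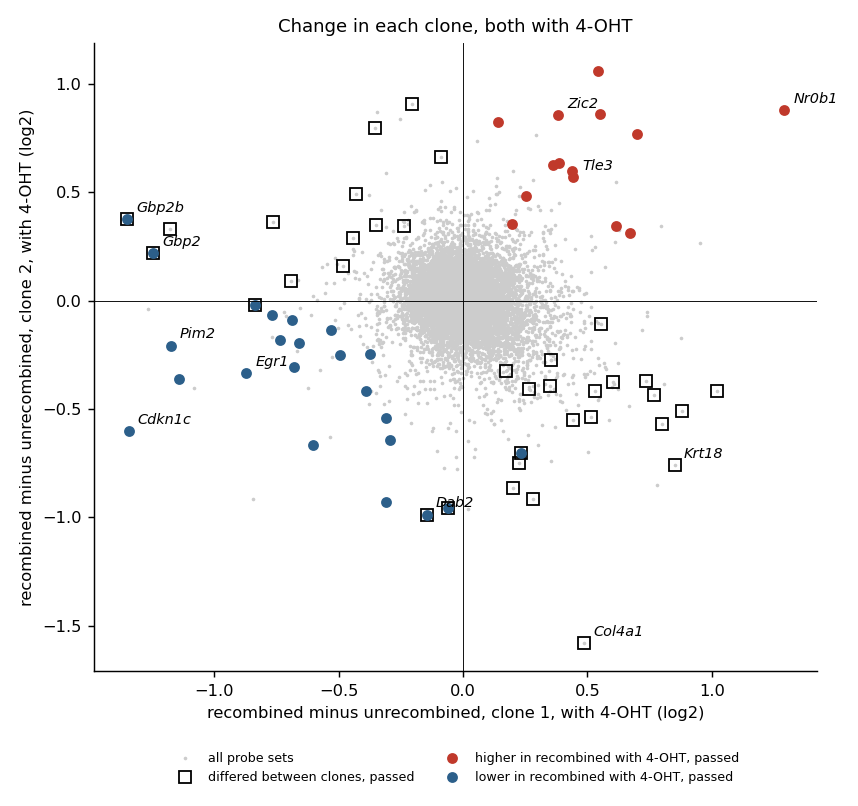
Log2 change between recombined and unrecombined cells with 4-OHT in clone 1 (x axis) and clone 2 (y axis) for all 12422 probe sets; red and blue points passed the test of the average and black squares passed the test of the difference between clones. The 14 red points lie in the upper right part, and 33 of the 36 squares lie where the clones have opposite signs.

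The interferon-induced guanylate-binding proteins were lower in recombined cells of clone 1 and not of clone 2. Gbp2 had 7.14, 7.33, 7.29 and 7.34 in recombined clone 1 cells, against 8.60, 8.54 and 8.42 in unrecombined clone 1 cells. Its clone 2 arrays gave 7.39, 7.38 and 7.65 in recombined cells, against 7.21, 7.28 and 7.27 in unrecombined cells. The unrecombined clone 1 arrays stood above all others, and the difference between the clones' changes was −1.46 ± 0.12 (SE, adjusted p = 1e-07). Gbp2b changed by −1.35 in clone 1 and 0.38 in clone 2, and Gbp3 by −1.18 and 0.33. Irf1, the interferon-induced transcription factor, was at −0.84 in clone 1 and −0.02 in clone 2 (difference −0.82 ± 0.17 (SE, adjusted p = 0.0428)). Psmb8, an immunoproteasome subunit, changed by −1.27 and −0.04, a difference that did not pass (adjusted p = 0.101). Of 27 interferon-induced genes measured, 3 fell in the average (Gbp2, Gbp2b and Irf1), against 0.185% of all probe sets, and 0 rose. The median of the 27 was −0.0827, with −0.197 in clone 1 and 0.0576 in clone 2. Without 4-OHT the same contrast was present: Gbp2 changed by −1.08 in clone 1 and 0.87 in clone 2.

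The type IV collagen genes of basement membrane had another pattern, with lower values in recombined cells of clone 2. Col4a1 had 9.05, 8.35, 8.82 and 8.35 in recombined clone 1 cells, against 8.28, 7.90 and 8.28 in unrecombined clone 1 cells. Clone 2 gave 8.37, 8.26 and 7.83 in recombined cells, against 9.90, 9.55 and 9.74 in unrecombined cells. Unrecombined clone 2 cells were the highest group, and the difference between clones was 2.07 ± 0.29 (SE, adjusted p = 0.000533). Its head-to-head partner Col4a2 changed by 0.24 in clone 1 and −0.70 in clone 2 (difference 0.94 ± 0.10 (SE, adjusted p = 9.99e-06)). The endocytic proteins of visceral endoderm Cubn (−0.06 and −0.96) and Dab2 (−0.15 and −0.99) had their larger change in clone 2. These values come from the probe sets that passed, which are not the brightest of either gene. Without 1 array at a time Irf1 lost its call in the average in 5 of 13 cases (highest adjusted p = 0.1) and Col4a2 in 11 (highest adjusted p = 0.173). Lama1, a laminin chain, changed by 0.44 in clone 1 and −0.55 in clone 2 (difference 1.0 ± 0.21, SE, adjusted p = 0.0428). The summed intensity of the 32 primitive and visceral endoderm genes was 6191 to 6758 in recombined clone 1 cells, against 5254 to 5748 in unrecombined clone 1 cells. In clone 2 it was 5125 to 5474 in recombined cells, against 6346 to 6669 in unrecombined cells. The sums include the 4 members that passed the test of the difference, while the median change of the 32 genes was 0.0135 in clone 1 and −0.0864 in clone 2. The part of endoderm-like cells was not tested. Gata6 changed by −0.0451 in clone 1 and −0.258 in clone 2, and Sox17 by 0.0298 and −0.0999.

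Genes of the epithelial and contractile cytoskeleton were the third group. Krt18, a simple epithelial keratin, had 8.02, 8.78, 8.76 and 8.60 in recombined clone 1 cells, against 7.83, 7.81 and 7.42 in unrecombined clone 1 cells. Clone 2 cells held 7.0, 6.64 and 7.50 in recombined cells, against 7.43, 8.08 and 7.91 in unrecombined cells. The difference between clones was 1.61 ± 0.33 (SE, adjusted p = 0.0398); it did not pass in 10 of 13 fits without 1 array, nor did that of Lgals1 (highest adjusted p = 0.141 for both). Skeletal α-actin Acta1 differed by 1.44 ± 0.23 (SE, adjusted p = 0.00252), the annexin Anxa1 by 1.37 ± 0.23 (SE, adjusted p = 0.0037) and the galectin Lgals1 by 1.39 ± 0.29 (SE, adjusted p = 0.0398). In that list 7 of 23 genes passed the test of the difference, all with a higher change in clone 1, against 0.177% of all probe sets. In the test of the average 0 of the 23 passed. The β-actin ratio moved the opposite way between the clones, by −0.191 in clone 1 and 0.347 in clone 2, and with it as a covariate 73 probe sets passed the test of the difference. Without single arrays 11 to 32 passed. Among other genes, the change was lower in clone 1 than in clone 2 for the bicarbonate transporter Slc4a5 (difference −1.15 ± 0.19 (SE, adjusted p = 0.00312)). It was so for Coch (difference −1.13 ± 0.25 (SE, adjusted p = 0.0428), lost in 11 of 13 fits without 1 array, highest adjusted p = 0.171). Beyond the naming rule, the same held for the stress factor Xbp1 (change of −0.21 in clone 1 and 0.91 in clone 2) and the methylation-sensitive Rhox5 (−0.09 and 0.66).

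All 36 clone differences had the same sign without 4-OHT, against 44.2% of all probe sets. The arrays without 4-OHT did not enter the estimate of these differences with 4-OHT, but they shared in the estimate of spread that decided the calls. Their median size was 0.977 with 4-OHT and 0.865 without, and the Pearson r between both differences was 0.982 over the 36 and 0.131 over all probe sets. The 36 were chosen for large differences of either sign with 4-OHT, and such a choice tends to raise r, so these r values are not comparable. Col4a1 differed by 2.07 with 4-OHT and by 2.20 without, Gbp2b by −1.73 in both states, and Acta1 by 1.44 with 4-OHT and 1.10 without. The same cell lines are in both sets of arrays, so a property of a line and an effect of recombination in that clone cannot be told apart.

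**Figure D3:**
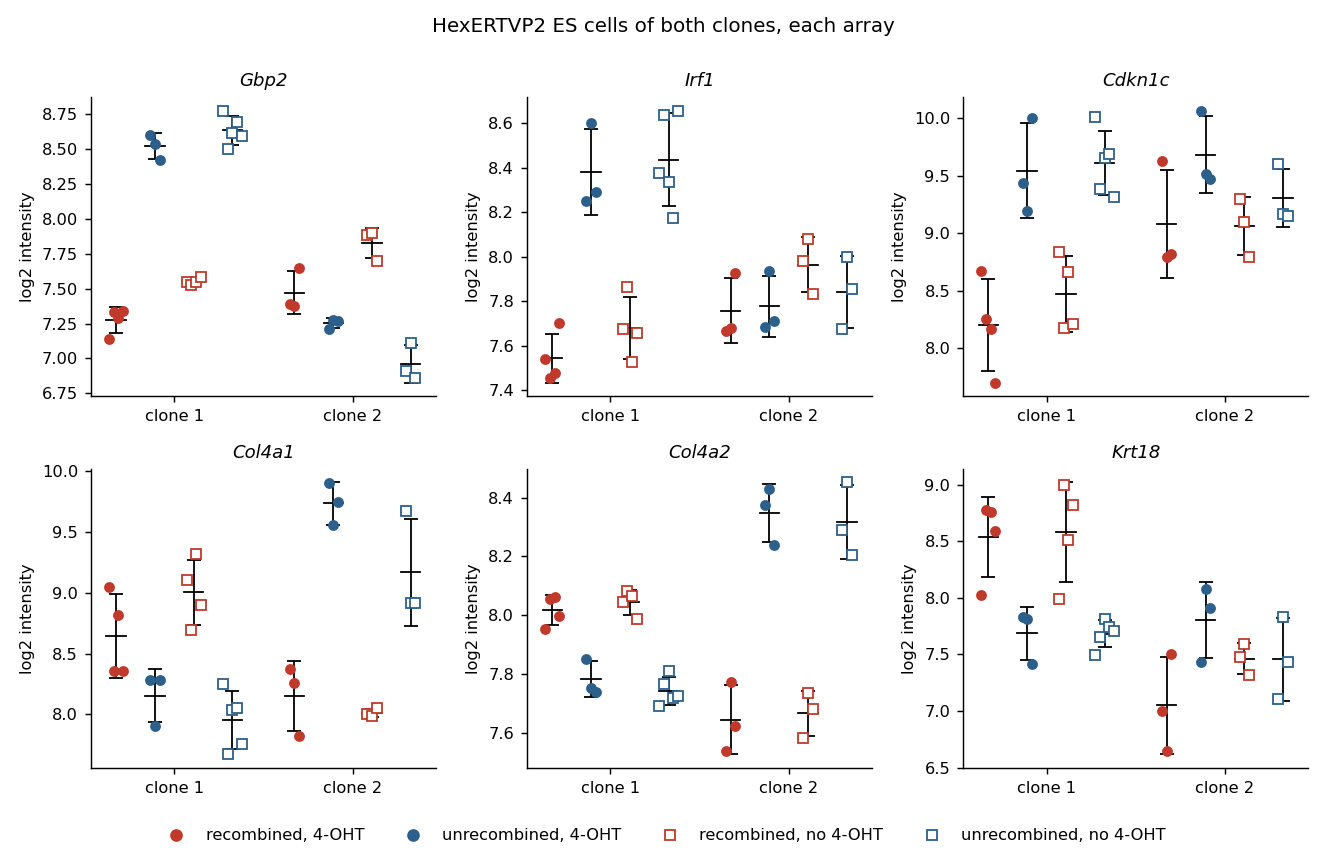
Log2 intensity on each of the 28 HexERTVP2 arrays for Gbp2, Irf1, Cdkn1c, Col4a1, Col4a2 and Krt18, by clone; filled circles are arrays with 4-OHT, open squares arrays without it, recombined cells in red and unrecombined cells in blue, with means and SDs. Gbp2 is high in unrecombined clone 1 cells and Col4a1 in unrecombined clone 2 cells, in both ligand states.

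The comparison without 4-OHT gave the same contrast in cells that had no ligand. In it 263 probe sets passed (2.12%), 211 higher (1.7%) and 52 lower (0.419%), led by the BMP ligand Bmp4 (0.86 ± 0.19 (SE, adjusted p = 0.0138)) and the antigen-presenting Cd1d1 (0.85 ± 0.12 (SE, adjusted p = 0.000317)) among rises and by the ubiquitin ligase Mid1 (−0.86 ± 0.22 (SE, adjusted p = 0.0369)) and Pim2 (−0.83 ± 0.15 (SE, adjusted p = 0.00256)) among falls. The β-actin ratio was 0.733 to 2.34 in recombined cells without 4-OHT and 0.559 to 1.48 in unrecombined cells without 4-OHT, a difference of 0.437 (exact permutation test within clones, two-sided, 2520 permutations, p = 0.0889). With that ratio in the fit 232 probe sets passed, 160 of them among the 263, and its part in the calls was not tested. The Mid1 call was lost in 11 of 15 fits without 1 array (highest adjusted p = 0.155) and with the β-actin covariate (−0.55, adjusted p = 0.0634), and that of Bmp4 in 2 of 15 (highest adjusted p = 0.0657). With 4-OHT, Bmp4 changed by 0.17, Cd1d1 by 0.53 and Mid1 by −0.08, and none of these 3 passed. The Bmp4 values come from its dimmer probe set. Its brighter set (mean 8.09) changed by 0.059 ± 0.063 (SE) with 4-OHT and did not pass. The count of 263 was 83 without replicate 3 and 692 without replicate 1 of unrecombined clone 2. Of the 37 calls with 4-OHT, 15 (40.5%) also passed without it in the same direction, which is 5.7% of the 263. In sign, 34 of the 37 (91.9%) matched, against 57.3% of all probe sets.

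The values without 4-OHT are given here for the calls with it. All 14 rises were positive without 4-OHT, with a median of 0.508 with the ligand and 0.46 without it, and 8 of them passed in both states. Of the 23 falls, 20 were negative without 4-OHT, the median was −0.469 with the ligand and −0.16 without it, and 7 passed in both. The change was larger with 4-OHT in 10 of 14 rises and in 21 of 23 falls; since the members were chosen for their change with 4-OHT, a smaller value elsewhere is what the choice alone tends to give. Whether rises and falls differ in this was not tested, and the comparison without 4-OHT held more rises than falls over all probe sets.

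Nr0b1 and Ak4 stood for the rises that were present in both states. Without 4-OHT Nr0b1 had 9.50, 9.83, 10.26 and 10.14 in recombined clone 1 cells, against 9.48, 9.30, 9.56, 9.44 and 9.31 in unrecombined clone 1 cells. In clone 2 it had 9.96, 9.77 and 9.74 in recombined cells, against 9.10, 9.55 and 9.32 in unrecombined cells. Clone 1 arrays overlapped and clone 2 arrays were separate, and the change was 0.51 ± 0.10 (SE, adjusted p = 0.00949). The difference with minus without 4-OHT, 0.58 ± 0.15 (SE, adjusted p = 0.454), did not pass. Ak4 changed by 0.75 ± 0.06 (SE, adjusted p = 1.72e-07) without the ligand, Noct by 0.52 ± 0.08 (SE, adjusted p = 0.00135), Klf4 by 0.56 ± 0.11 (SE, adjusted p = 0.00647), Dppa3 by 0.55 ± 0.09 (SE, adjusted p = 0.00186) and the unnamed 97519_at by 0.64 ± 0.08 (SE, adjusted p = 3.88e-05). Cdkn1c (−0.69 ± 0.17 (SE, adjusted p = 0.0303), lost in 4 of 15 fits without 1 array, highest adjusted p = 0.091) and Dab2 (−0.64 ± 0.09 (SE, adjusted p = 0.000163)) were among the 7 falls that passed in both states.

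Tle3 and Zic2 did not pass without 4-OHT. Tle3 had 8.8, 9.04, 9.18 and 9.12 in recombined clone 1 cells, against 9.0, 8.97, 9.11, 8.92 and 9.08 in unrecombined clone 1 cells. Clone 2 cells held 8.99, 9.03 and 8.89 in recombined cells, against 8.55, 8.64 and 8.76 in unrecombined cells. It overlapped in clone 1 and was separate in clone 2, with a change of 0.17 ± 0.06 (SE, adjusted p = 0.125). Zic2 changed by 0.08 ± 0.09 (SE, adjusted p = 0.694), −0.13 in clone 1 and 0.28 in clone 2. A p that misses the threshold in one state does not show that the states differ: the difference with minus without 4-OHT was 0.34 ± 0.08 (SE, adjusted p = 0.34) for Tle3 and 0.54 ± 0.13 (SE, adjusted p = 0.257) for Zic2.

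**Figure D4:**
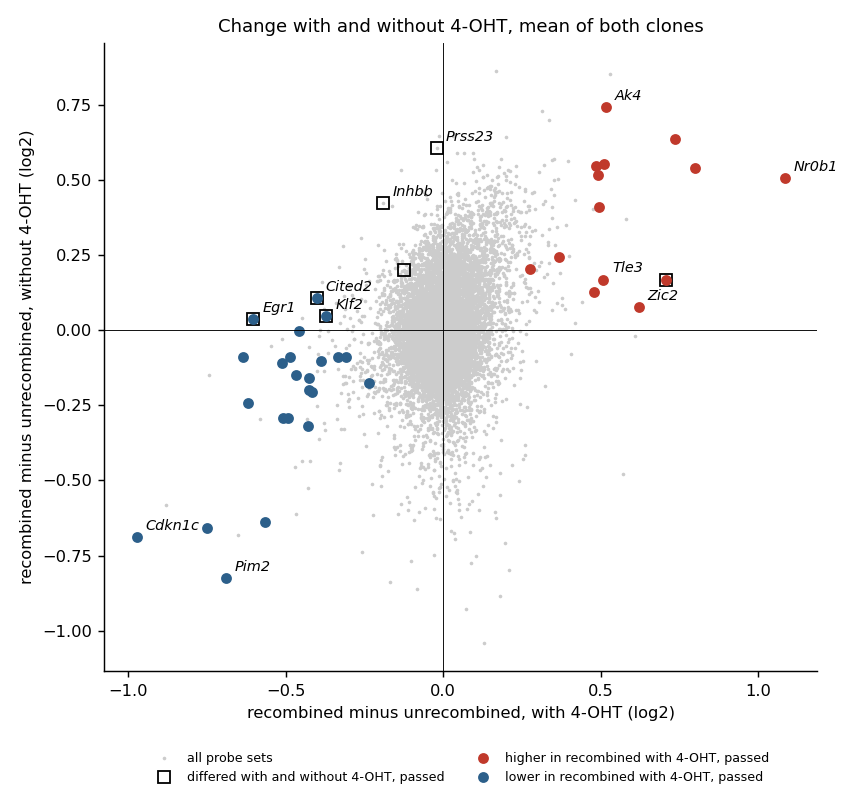
Log2 change between recombined and unrecombined cells with 4-OHT (x axis) and without 4-OHT (y axis), mean of both clones, for all 12422 probe sets; red and blue points passed with 4-OHT and black squares passed the test of the difference between ligand states. The 14 red points all lie above 0 on the y axis, while Egr1, Klf2 and Cited2 lie at 0.04, 0.05 and 0.11 on it.

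The test of the difference itself, the change with 4-OHT minus the change without it, found 7 probe sets (0.0564%; 1 higher, 0.00805%, and 6 lower, 0.0483%), of which 4 were also among the 37. Egr1 without 4-OHT had 7.82, 7.89, 8.19 and 7.96 in recombined clone 1 cells, against 8.32, 8.08, 8.27, 8.36 and 8.21 in unrecombined clone 1 cells. In clone 2 it had 8.39, 8.49 and 8.37 in recombined cells, against 7.97, 8.11 and 8.10 in unrecombined cells. The recombined mean was lower in clone 1 and higher in clone 2 in that state, the average change was 0.04, and the difference was −0.64 ± 0.10 (SE, adjusted p = 0.00391).

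Klf2 without 4-OHT had 8.49, 8.31, 8.50 and 8.47 in recombined clone 1 cells, against 8.52, 8.53, 8.60, 8.58 and 8.55 in unrecombined clone 1 cells. Its clone 2 values were 8.76, 8.65 and 8.73 in recombined cells, against 8.57, 8.49 and 8.44 in unrecombined cells. Here too the changes had opposite signs in the clones without the ligand and the same sign with it, and the difference was −0.42 ± 0.07 (SE, adjusted p = 0.00819). Cited2 changed by −0.12 in clone 1 and 0.33 in clone 2 without 4-OHT, with a difference of −0.51 ± 0.10 (SE, adjusted p = 0.0363). That call was lost in 17 of 28 fits without 1 array (highest adjusted p = 0.125) and with median centring (adjusted p = 0.0516), quantile normalisation (0.145) or trended robust moderation (0.0857). With all 40 assigned arrays the differences of Cited2, Klf2 and Inhbb did not pass (adjusted p = 1, 0.841 and 0.12). Tfap2c followed the same pattern, with −0.36 and 0.36 without 4-OHT, but its difference of −0.46 ± 0.09 (SE, adjusted p = 0.0771) did not pass. The single positive difference was that of probe set 100914_at, 0.54 ± 0.09 (SE, adjusted p = 0.00819).

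The other 3 genes rose without 4-OHT and did not pass with it. Inhbb, the activin βB subunit, had 5.06, 5.25, 5.14 and 5.31 in recombined clone 1 cells, against 4.74, 4.79, 4.80, 4.80 and 4.60 in unrecombined clone 1 cells. Clone 2 gave 5.36, 5.23 and 5.10 in recombined cells, against 4.78, 4.90 and 4.78 in unrecombined cells. Recombined cells were higher in both clones by 0.43 ± 0.05 (SE, adjusted p = 4.06e-05), against −0.19 ± 0.06 (SE, adjusted p = 0.228) with the ligand, and the difference was −0.62 ± 0.08 (SE, adjusted p = 0.000261); only 18% of probe sets had a lower mean level. Prss23, a protease gene known to answer to oestrogens, changed by 0.61 ± 0.07 (SE, adjusted p = 1.36e-05) without 4-OHT and −0.02 with it (difference −0.63 ± 0.10 (SE, adjusted p = 0.00496)). Its change with 4-OHT was 0.35 in clone 1 and −0.39 in clone 2, and these differed (0.75 ± 0.14, SE, adjusted p = 0.0198). Nr5a2, a nuclear receptor of the pluripotency network named beyond the rule, changed by 0.20 without 4-OHT (adjusted p = 0.0107) and by −0.13 with it (difference −0.33 ± 0.06, SE, adjusted p = 0.0295).

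**Figure D5:**
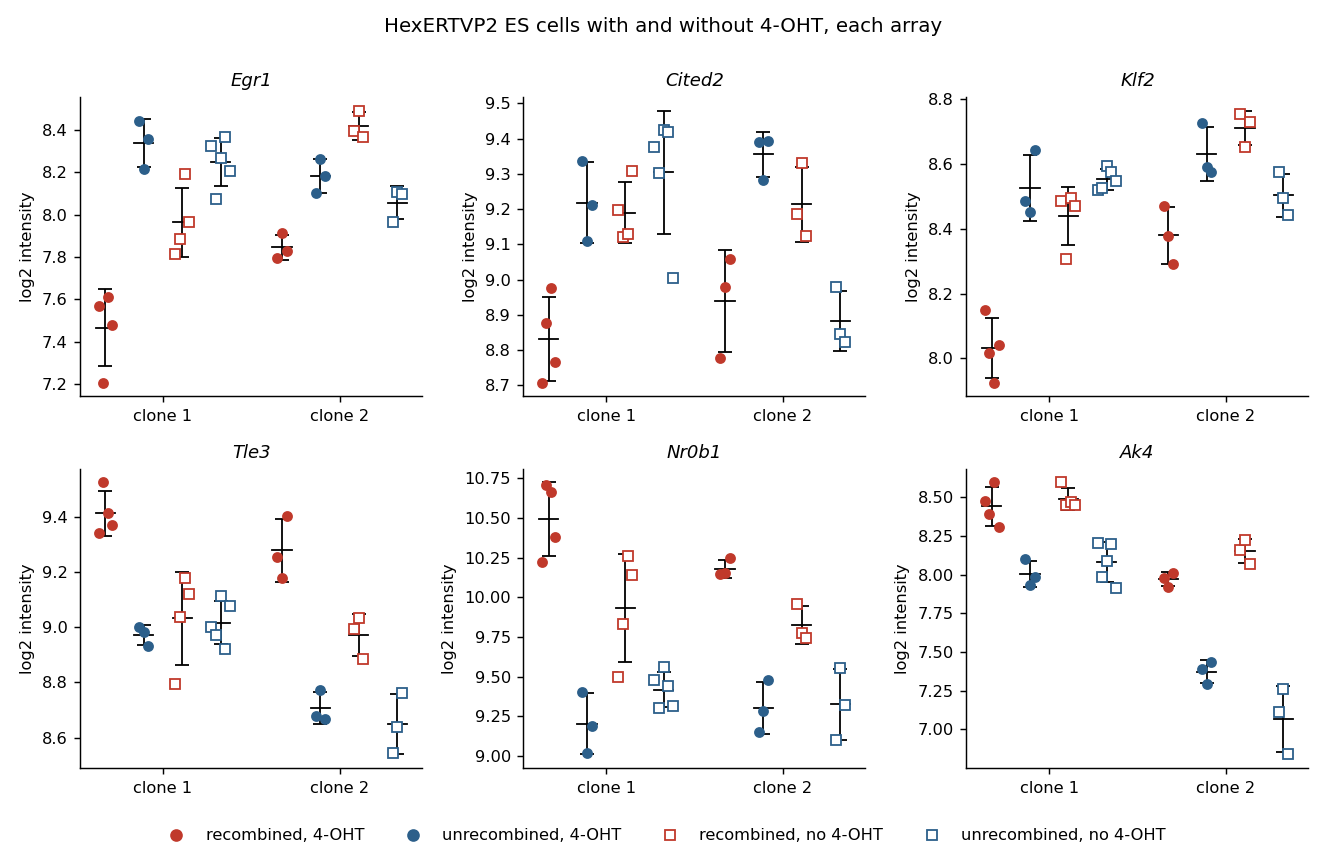
Log2 intensity on each of the 28 HexERTVP2 arrays for Egr1, Cited2, Klf2, Tle3, Nr0b1 and Ak4, by clone; filled circles are arrays with 4-OHT, open squares arrays without it, recombined cells in red and unrecombined cells in blue, with means and SDs. Egr1, Cited2 and Klf2 are lowest in recombined cells with 4-OHT in clone 1, and Ak4 is higher in recombined cells of each clone in both ligand states.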

How the data were processed

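Expression was measured in 44 mouse ES cell samples, each on 1 single-channel array. The deposited values are intensities on the linear scale, made with RMA per the submitters' processing notes, which give no version, settings or genome build; RMA combines background correction, quantile normalisation between arrays and a robust summary over each set's probes. Which arrays were normalised together is not given in the sources used here; array medians were 106 to 112. The number of arrays limits the precision. Intensities were converted to log2. Of 12488 probe sets, 66 control sets were left out and 12422 tested with no filter. The platform annotation gave 10833 of them 1 symbol, 396 several and 1193 none; 10817 matched the RefSeq GRCm38.p6 table by Entrez ID, and 0 symbols changed.

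Groups came from the labels, and 4 arrays whose title words and array code disagree were left out of all tests. The 28 assigned HexERTVP2 arrays were fitted as 8 group means with limma 3.58.1 (R 4.3.3; lmFit, eBayes, two-sided, 20 residual degrees of freedom), with Benjamini-Hochberg adjustment over all probe sets at 0.05. The tests were recombined against unrecombined with 4-OHT, the difference of that change between clones, the same contrast without 4-OHT, and the difference between ligand states. The procedure was tested on simulated data. Genes named were Hhex, Tle4, Nodal and Gt(ROSA)26Sor; up to 15 rises and 15 falls with 4-OHT that passed with separate arrays in both clones; up to 5 each in the other tests; and from each of 27 gene lists up to 4 passing members, or 2 as values. Other called probe sets were added to account for the 37, of which 1 rise is not reported here by name. Members and lists were chosen with earlier results of these data known. Alternatives changed the arrays fitted, normalisation, filter, variance moderation, array weights, covariate, block, threshold and left-out arrays. Figures were drawn with matplotlib 3.10.9 (Python 3.11.15).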

Additional observations from a re-analysis of the deposited data

Results flagged for a closer look

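In the 4 arrays of recombined clone 1 cells with 4-OHT, 5 of 42 probe set and group combinations held a value far from the other 3 (Dixon's test, critical value 0.829), where chance flags about 5% of groups. Tapbp was 6.79 in 1 array, against 7.19 to 7.24 in the others. The Gm9706 probe set was 4.08, against 4.18 to 4.19, near the floor of the arrays. Probe set 97519_at was 11.60, against 11.29 to 11.34. Hhex was 6.31, against 6.13 to 6.16, and Zic2 was 6.34, against 6.6 to 6.64.

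The change between recombined and unrecombined cells with 4-OHT differed between the clones in a test of the difference, clone 1 minus clone 2, for 14 named genes. It was positive for Col4a1 (2.07), Krt18 (1.61), Acta1 (1.44), Lgals1 (1.39), Anxa1 (1.37), Col4a2 (0.94), Cubn (0.90) and Dab2 (0.84). It was negative for Gbp2b (−1.73), Gbp3 (−1.51), Gbp2 (−1.46), Slc4a5 (−1.15), Coch (−1.13) and Irf1 (−0.82). All of these had the same sign in cells without 4-OHT.

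The change differed between ligand states, with minus without 4-OHT, for Egr1 (−0.64), Prss23 (−0.63), Inhbb (−0.62), Cited2 (−0.51), Klf2 (−0.42) and probe set 100914_at (0.54). The Cited2 difference was lost in 17 of 28 fits without 1 array. Egr1, Cited2 and Klf2 passed with 4-OHT and not without it, and Prss23 and Inhbb passed without it and not with it.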

How the results depend on the processing

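With 4-OHT, 37 probe sets passed, and 25 to 52 did with the 13 arrays alone, median centring, quantile normalisation, the level filter, trended robust moderation or a threshold of 0.01. The 13 arrays alone gave 26, of which 24 were among the 37. Calls lost in that fit included Cdkn1c, Noct, Klf4, Calml4, Ppp2r5a, Irf1, Pim2, Tapbp, Col4a2 and Gm20767. The unnamed 93326_at and 94027_at were lost as well. The count was 23 with all 40 assigned arrays, 65 with 39 (without array 2 of unrecombined Hex cells), 235 with array weights, 143 with the β-actin covariate (all 37 among them) and 10 with an additive clone factor; leaving out single arrays gave 27 to 39. Zic2, Tfap2c and Klf2 did not pass with the additive clone factor, while Nr0b1, Tle3, Ak4, Egr1 and Cited2 did. Fewer residual degrees of freedom (10 and 5, against 20) come with the additive fit and with the block below. For the difference between clones, 36 passed; the count was 13 with the 13 arrays alone, 17 with 40 arrays, 23 with the level filter, 457 with array weights, 73 with the covariate, 11 at a threshold of 0.01 and 11 to 32 without single arrays. Without 4-OHT, 263 passed; the count was 103 with the compared arrays alone, 58 with 40 and 420 with 39 arrays, 444 with array weights, 42 with the additive factor, 62 at 0.01 and 83 (without unrecombined clone 2 replicate 3) to 692 (without its replicate 1) when single arrays were left out. For the difference between ligand states, 7 passed; the count was 2 with 40 arrays, 16 with array weights and 5 to 9 without single arrays. The causes were not tested.

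Replicate numbers were not taken to pair the samples: with 4-OHT, 6 same-numbered pairs of recombined and unrecombined arrays had deviations correlated from −0.628 to 0.68, with 3 over 0.1. Without 4-OHT the 6 pairs had −0.033 to 0.595, with 5 over 0.1, all 4 of clone 1 among them. With clone and replicate number as a block in the compared arrays, 3 probe sets passed with 4-OHT (Nr0b1, 97519_at and 100914_at) and 142 without it. The number as a block over the 28 arrays gave 51 with 4-OHT, 38 for the clones, 248 without 4-OHT and 8 for the ligand states; joined with the β-actin covariate, a fit chosen after seeing the data, it gave 138, 68, 146 and 7. The difference in the β-actin ratio turned negative without unrecombined clone 1 replicate 2 (−0.015) or recombined clone 2 replicate 3 (−0.108), and its values without single arrays ran from −0.108 to 0.225. The Hhex change, 0.01, turned to −0.041 with array weights, −0.034 without unrecombined clone 2 replicate 2, −0.016 without recombined clone 1 replicate 2 and −0.02 without recombined clone 2 replicate 4, 0.036 being the highest without a single array, and the Gt(ROSA)26Sor change to −0.001 without recombined clone 2 replicate 3, with 0.091 the highest. Among the 37 calls, Tle4 and Nodal, no change with 4-OHT turned its sign under these alternatives. Genes that the naming rule took from the other tests were refitted in those tests, and none turned its sign there. Other named changes were not refitted.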

Other observations

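For 4 HexERTVP2 arrays the title contradicts the code it ends with, so they entered no comparison. One was unrecombined with 4-OHT, with the clone in conflict, and read 9.31 for Nr0b1, 8.54 for Egr1, 8.63 for Gbp2 and 8.42 for Col4a1. Another was of unrecombined clone 2, with the 4-OHT label in conflict, and read 9.19 for Nr0b1, 8.09 for Egr1, 7.19 for Gbp2 and 9.54 for Col4a1. The third was recombined, with both clone and 4-OHT in conflict, and read 9.84 for Nr0b1, 8.35 for Egr1, 7.68 for Gbp2 and 8.23 for Col4a1. The last was recombined with 4-OHT, with the clone in conflict, and read 10.41 for Nr0b1, 7.90 for Egr1, 7.64 for Gbp2 and 8.28 for Col4a1.

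The series also holds 4 arrays of recombined and 4 of unrecombined cells with Hex that has no receptor or activation domain in its name, and these were set beside the 37 calls after seeing the data. In the fit with 39 arrays (without array 2 of unrecombined Hex cells, which stands apart), 28 of the 37 had the opposite sign in recombined against unrecombined Hex cells, and 14 of these passed; 6 passed with the same sign. With all 40 arrays 23 had the opposite sign, and 11 passed so and 5 with the same sign. Opposite signs were found in 48.1% of all probe sets with 39 arrays and 44.9% with 40. Of the 12422 probe sets tested, 778 passed between recombined and unrecombined Hex cells with 39 arrays and 419 with 40. Nr0b1 changed by −0.53 ± 0.14 (SE, adjusted p = 0.0132) in the Hex cells with 39 arrays and by −0.19 with 40, against 1.08 in HexERTVP2 cells with 4-OHT. Klf2 changed by 0.35 ± 0.07 (SE, adjusted p = 9.84e-04) and Tfap2c by 0.39 ± 0.09 (SE, adjusted p = 0.00561) in Hex cells. Both changes were negative in HexERTVP2 cells with 4-OHT. Without 4-OHT the HexERTVP2 change was 0.05 for Klf2, and that of Tfap2c had opposite signs in the clones. The labels of the Hex arrays name no 4-OHT. Noct changed by −0.62 ± 0.11 (SE, adjusted p = 2.76e-04) with 39 arrays and by −0.12 with 40. Ak4 (0.63 ± 0.10, SE, adjusted p = 9.91e-05) and Dppa3 (1.46 ± 0.13, SE, adjusted p = 1.35e-09) passed with the same sign in both constructs, while Tle3 changed by −0.06 ± 0.08 and did not pass.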
